A study of Mus musculus with 8 samples.

Results

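The 39 genes described here encode the main antioxidant systems of the mouse: the NRF2 and KEAP1 regulators, glutathione synthesis and cystine import, glutathione peroxidases and transferases, the thioredoxin and peroxiredoxin systems, superoxide dismutases and catalase, quinone and haem enzymes, and metallothioneins. They were chosen by name, and all 39 were found among the 54532 gene identifiers of the count table. Of these, 38 were abundant enough to test among 15857 genes, and Mt2 was not. RNA came from lens capsules of wild-type (WT) C57BL/6 mice aged 6 to 8 weeks, taken 7 days after surgery. In 4 libraries, named ASC by the submitters and described as an injury-induced model of fibrotic cataract, a 26-gauge needle had opened the centre of the anterior capsule through the cornea. In 4 sham libraries the cornea had been cut and the capsule left closed, per the submitters' treatment label and design text. The protocol text in the labels names the needle for the sham samples too. Replicates are described as biological, and the sources used here do not say how many capsules or mice each library represents.

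The lens is held clear by an unusually strong reducing environment, in which glutathione, made from cysteine, glutamate and glycine, is the principal soluble thiol. Glutathione peroxidases, peroxiredoxins and catalase remove peroxides, superoxide dismutases convert superoxide to hydrogen peroxide, and glutathione and thioredoxin reductases restore the thiols with NADPH. The transcription factor NRF2, which KEAP1 marks for degradation until oxidants or electrophiles modify it, drives many of these genes through antioxidant response elements (AREs), whereas metallothioneins are driven by zinc through metal response elements (MREs).

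Library totals ranged from 14420494 to 21141582 counts, and 16 crystallin genes took 31.2% to 39.1% of counts in ASC and 28.4% to 37.7% in sham libraries. Lens epithelium markers, taken as Foxe3, Pax6, Cdh1, Cdh2, Prox1, Maf, Mab21l1 and Pitx3, were present in every library. Their summed level was 2104 to 2493 CPM (counts scaled to a common library size) in ASC and 2202 to 2504 CPM in sham. Of these 8 markers edgeR called 1, against 1.02% of all genes. This was Mab21l1, which fell (log2 fold change -0.96, adjusted p = 0.00209, and at most 0.00861 with any library left out). The groups did not overlap for 2 of the 8, Mab21l1 and Pax6, against 9.06% of all genes. Pax6 was lower in ASC and was not called (log2 fold change -0.15, adjusted p = 0.502). The tissue also carried RNA typical of other cells. Photoreceptor markers summed to 1949 to 3700 CPM in ASC and 988 to 4149 CPM in sham. Red cell markers summed to 73.9 to 370 CPM in ASC and 40.1 to 62.8 CPM in sham, with no overlap. Neutrophil markers were low but also apart in sum, at 2.88 to 4.72 CPM in ASC and 0.595 to 1.83 CPM in sham. Of these 6 markers only 2, Ltf and Mmp9, were abundant enough to test, and the groups overlapped for both. Pigment cell markers summed to 115 to 578 CPM in ASC and 25.6 to 196 CPM in sham. Of 6 corneal epithelium markers tested, the keratins Krt12, Krt5 and Krt6a rose in edgeR, which called 1.02% of all genes. All 3 calls were lost in limma-voom (adjusted p = 0.0572 to 0.0940) and without ASC 1, ASC 3, ASC 4, sham 2 or sham 3 (up to 0.138), and those of Krt5 and Krt6a also without sham 4. No marker in these lists was at 0 in all libraries.

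For 33 of the 38 tested members the log2 fold change, ASC over sham, lay within 0.5 of 0, while Hmox1 and Mt1 had several-fold higher means in ASC. None of the 38 members passed an adjusted p of 0.05 in edgeR's quasi-likelihood test with Benjamini-Hochberg adjustment over all genes, a threshold that 1.02% of all genes passed. At an unadjusted p under 0.05 there were 6 members, namely Hmox1, Mt1, Sod1, Cat and Gpx1 with higher means in ASC and Nfe2l2 with a lower one, against 14.7% of all genes. DESeq2 called 3 members, Sod1, Hmox1 and Mt1, against 3.74% of all genes, and limma-voom called 0, against 0.675% of all genes. With no low-count filter edgeR called 2, Sod1 and Cat, against 2.26% of all genes. The 4 ASC and 4 sham libraries did not overlap for 2 members, Sod1 and Mt1, against 9.06% of all genes in either direction and 3.39% with ASC higher. An absolute log2 fold change of at least 0.5 was found for 5 members (Hmox1, Mt1, Gsto1, Sod3 and Glrx), against 15.0% of all genes. In bulk tissue, more cells of a type and more RNA per cell cannot be told apart.

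The log2 fold change was above 0 for 32 of the 38 members, against 51.4% of all genes, with a median of 0.14 for the members and 0.01 for all genes. The number above 0 depended on scaling, for the members and for all genes alike. With library totals only, that is without edgeR's correction for composition (TMM), 21 of 38 members were above 0, against 32.2% of all genes, and the medians were 0.02 for members and -0.116 for all genes. The summed level of all 39 members was 4551 to 4774 CPM in ASC and 3747 to 4336 CPM in sham. With library totals only, those sums overlapped, at 3933 to 5055 CPM in ASC and 3792 to 4687 CPM in sham. In the plot of fold changes by role, the intervals of Hmox1, Mt1, Sod1, Cat, Gpx1 and Nfe2l2 leave out 0. These are the members with an unadjusted p under 0.05, a level that 14.7% of all genes passed.

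**Figure D1:**
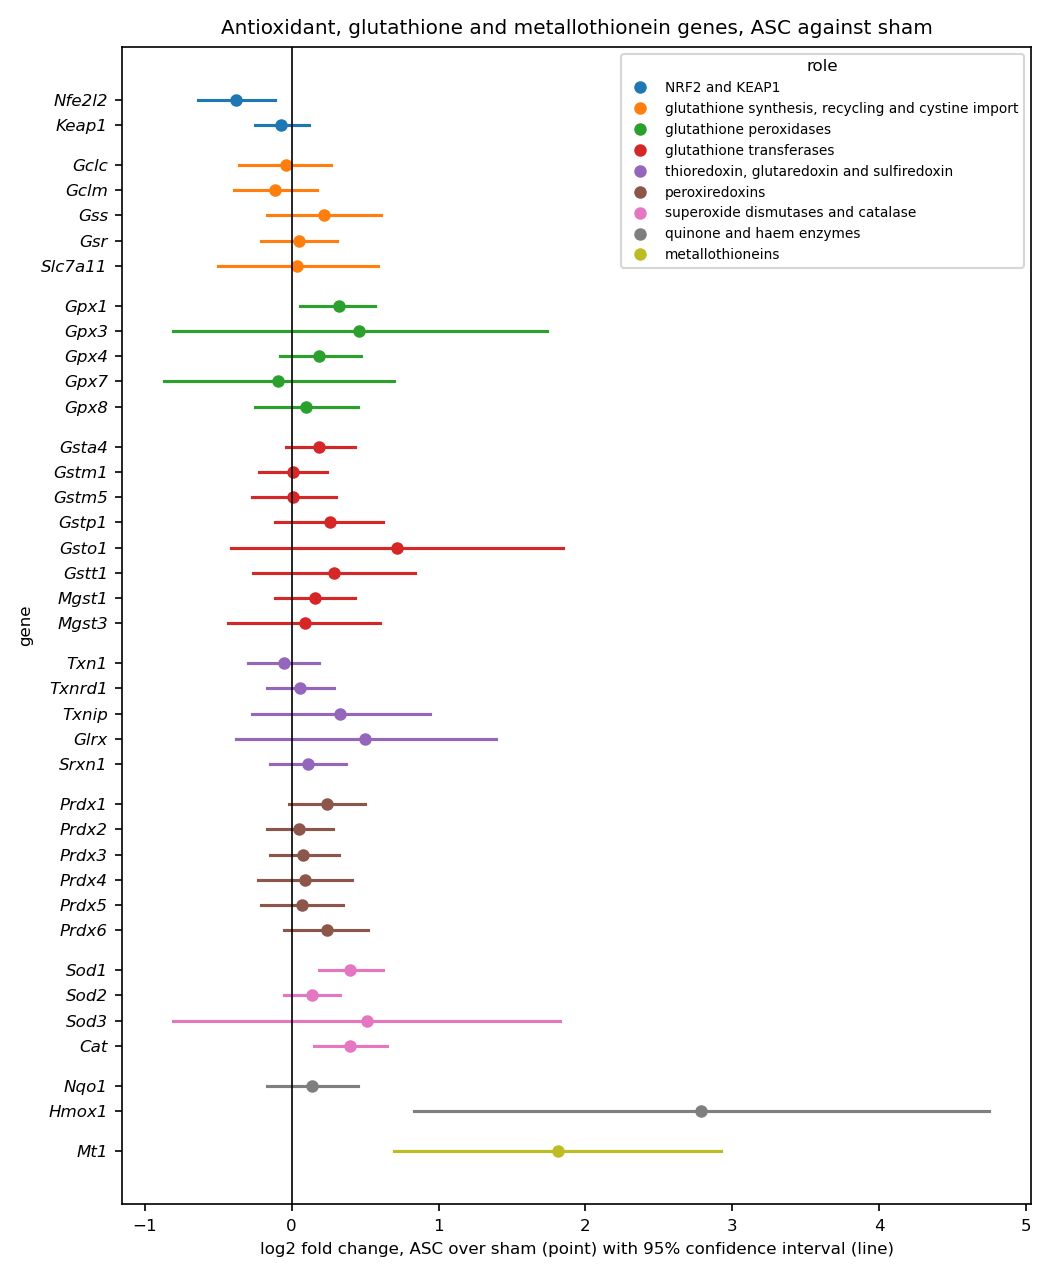
Log2 fold change of each of the 38 tested members, ASC over sham (points, edgeR), with 95% confidence intervals (lines), coloured by role. Most points lie within 0.5 of 0, and Hmox1 (2.79) and Mt1 (1.81) lie far to the right with wide intervals.

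Levels between genes were compared as CPM per kilobase of the main annotated transcript. Over the 8 libraries the highest mean was that of Gstm1, a glutathione transferase, at 581 CPM per kb, followed by the lipid peroxide reductase Gpx4 at 332 and the secreted peroxidase Gpx3 at 280. Next in order were Prdx5 at 207, Sod1 at 182, Prdx1 at 142, Gss at 131 and Prdx2 at 119 CPM per kb. The lowest were Glrx at 1.90, Gpx7 at 1.77 and Mt2 at 0.343 CPM per kb. Divided by the length of all annotated exons instead, Sod1 moved from rank 5 to rank 17, and Gstm1 was first on both scales.

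**Figure D2:**
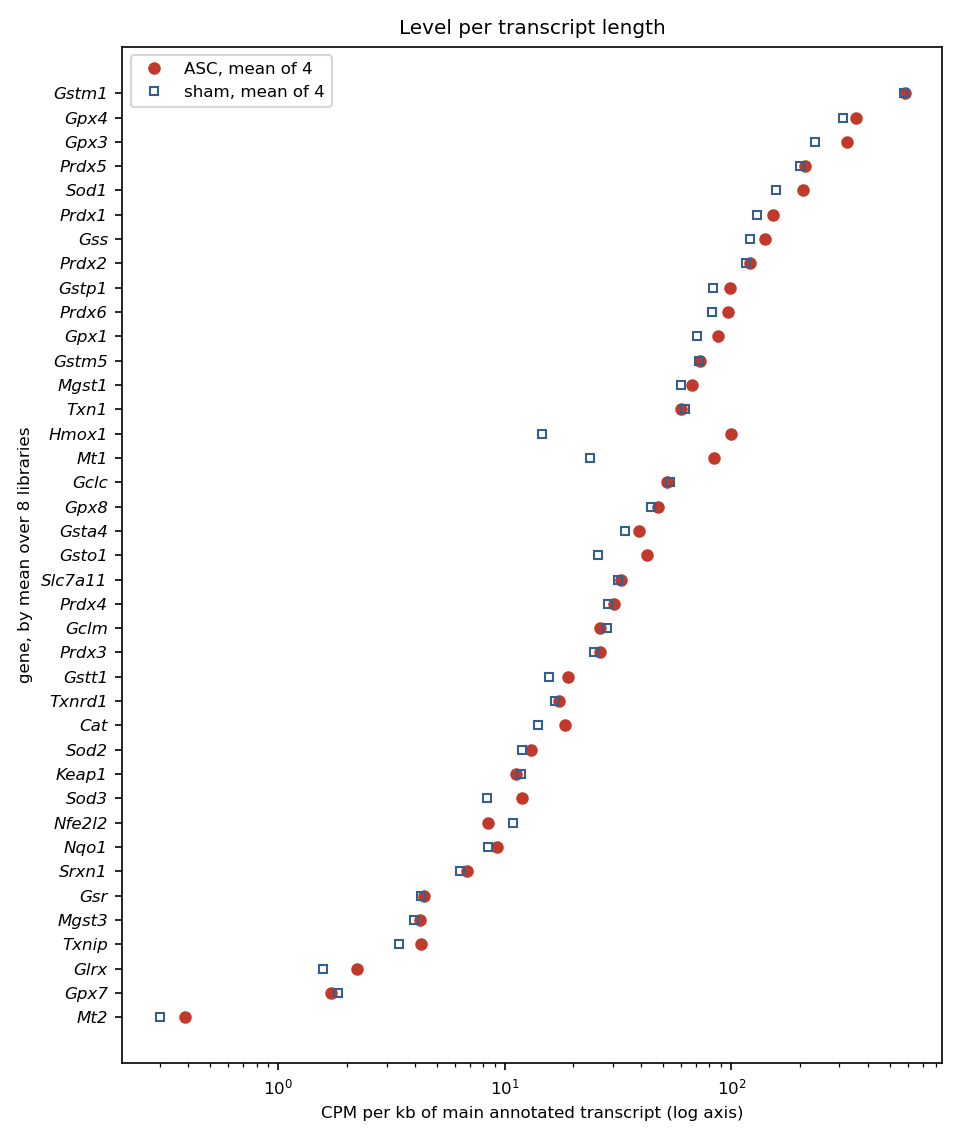
Mean level of each of the 39 members in ASC (filled circles) and sham (open squares) libraries, n = 4 each, as CPM per kilobase of the main annotated transcript on a log axis, ordered by the mean over 8 libraries. The pairs of symbols lie close together for most genes and are widely separated for Hmox1 (100 in ASC, 14.6 in sham) and Mt1 (83.4 in ASC, 23.7 in sham).

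Nfe2l2, the gene for NRF2, had 21.6, 19.2, 23.2 and 19.2 CPM in ASC libraries 1 to 4, against 22.6, 32.2, 27.5 and 25.7 CPM in sham libraries 1 to 4. In 3 of 4 ASC libraries it was below every sham library, and the groups overlapped through ASC 3 and sham 1. Its log2 fold change was -0.38 (95% confidence interval -0.64 to -0.11, unadjusted p = 0.00913, adjusted p = 0.177). Keap1, whose product binds NRF2, had 36.5, 36.5, 34.0 and 35.0 CPM in ASC libraries and 35.4, 39.2, 34.5 and 39.7 CPM in sham libraries. Its groups overlapped, with a log2 fold change of -0.07 (-0.25 to 0.12). An antisense gene, Gm16754, shares 10.9% of Keap1's exon bases, and whether reads were counted by strand is not given.

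Among the enzymes that make glutathione, Gclc encodes the catalytic and Gclm the modifier subunit of glutamate-cysteine ligase, the rate-limiting enzyme. Gclc had 197, 198, 195 and 120 CPM in ASC libraries and 194, 178, 175 and 184 CPM in sham libraries. Gclm had 94.1, 98.8, 88.8 and 65.1 CPM in ASC libraries and 106, 95.5, 88.9 and 83.4 CPM in sham libraries. Both subunits were lowest in ASC 4, and the other ASC libraries lay within or just above the sham range for each. The log2 fold changes were -0.04 (-0.36 to 0.27) for Gclc and -0.11 (-0.39 to 0.17) for Gclm. Without ASC 4 they were 0.10 and 0.00. Slc7a11, the cystine importer, had 294, 219, 268 and 426 CPM in ASC libraries and 201, 393, 305 and 270 CPM in sham libraries. It varied as much within each group as between them, with a log2 fold change of 0.04 (-0.50 to 0.59). Glutathione synthetase, Gss, averaged 276 ± 69.0 CPM in ASC and 237 ± 36.1 CPM in sham (SD, n = 4 each), and glutathione reductase, Gsr, averaged 11.8 ± 0.332 CPM in ASC and 11.4 ± 1.12 CPM in sham. These intervals do not show that synthesis was alike in both groups: that of Slc7a11 reached 0.59 in one direction and -0.50 in the other.

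The promoters of Gclm and of Txnrd1, thioredoxin reductase, are shown because both genes are textbook NRF2 targets and their values could be set beside those of Nfe2l2. Windows of 250 bases before to 50 bases after the RefSeq start (GRCm38.p6) were matched for 33 of the 39 members, and those of Gclc, Gsr, Gsta4, Prdx6, Sod3 and Hmox1 were not used here. The letters TGACNNNGC of the ARE core were searched on both strands. They occurred in 12.4% of 32851 mouse promoter windows and in 9 of the 41 windows of these 33 members, those of Gclm, Gstm5, Mgst1, Mt2, Nfe2l2, Prdx1, Sod1, Srxn1 and Txnrd1. Capitals mark the match, which lies on the reverse strand in both windows below.
Gclm, chr3:122245307-122245606, + strand: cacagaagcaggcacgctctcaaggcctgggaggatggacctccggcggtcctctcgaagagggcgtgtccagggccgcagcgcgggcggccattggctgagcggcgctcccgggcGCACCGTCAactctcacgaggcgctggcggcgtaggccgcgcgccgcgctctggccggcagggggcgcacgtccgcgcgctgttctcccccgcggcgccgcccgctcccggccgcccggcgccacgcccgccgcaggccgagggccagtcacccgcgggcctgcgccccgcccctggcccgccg
Txnrd1, chr10:82858956-82859255, + strand: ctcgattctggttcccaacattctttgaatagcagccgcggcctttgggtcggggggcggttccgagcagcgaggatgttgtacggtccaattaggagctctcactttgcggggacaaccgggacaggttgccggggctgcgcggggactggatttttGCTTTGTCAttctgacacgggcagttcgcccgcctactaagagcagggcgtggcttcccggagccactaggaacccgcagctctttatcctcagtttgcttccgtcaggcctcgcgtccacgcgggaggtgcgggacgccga

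Of the glutathione peroxidases, which reduce peroxides with glutathione, Gpx1 is the abundant cytosolic form. Gpx1 had 101, 86.9, 85.5 and 102 CPM in ASC libraries, against 74.0, 75.5, 62.0 and 89.9 CPM in sham libraries. All ASC libraries were above 3 of the 4 sham libraries, and sham 4 lay within the ASC range. For Gpx1 the log2 fold change was 0.32 (0.06 to 0.57, unadjusted p = 0.0189, adjusted p = 0.237). Gpx4, which reduces lipid hydroperoxides in membranes, had 318, 312, 328 and 400 CPM in ASC libraries and 272, 318, 254 and 344 CPM in sham libraries. Its groups overlapped, with a log2 fold change of 0.19 (-0.08 to 0.47). A pseudogene copy, Gpx4-ps2, held 7607 counts over the 8 libraries, so reads may be divided between the copies. Gpx3, the secreted form, was named after its values were seen. It had 175, 929, 476 and 487 CPM in ASC libraries and 176, 473, 390 and 460 CPM in sham libraries. The spread within ASC was 5.29-fold, and the lowest library in each group was replicate 1. Its log2 fold change of 0.46 had an interval of -0.81 to 1.74, and it was 0.02 without ASC 2. Of the endoplasmic reticulum forms, Gpx7 averaged 2.20 ± 0.744 CPM in ASC and 2.36 ± 0.868 CPM in sham, and Gpx8 averaged 49.3 ± 5.19 CPM in ASC and 46.0 ± 11.2 CPM in sham.

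The 8 glutathione transferases, which join glutathione to electrophiles, had log2 fold changes of 0.01 to 0.72 with a median of 0.18, and none passed the test or had an unadjusted p under 0.05. With library totals only, those of Gstm1, Gstm5 and Mgst3 were below 0, at -0.12, -0.11 and -0.01. Gsto1, an omega-class transferase with thiol transferase and dehydroascorbate reductase activity, had 71.9, 27.7, 51.0 and 50.8 CPM in ASC libraries, against 57.6, 24.8, 15.5 and 23.9 CPM in sham libraries. In 3 of 4 sham libraries it was below every ASC library, and sham 1 exceeded 3 of the 4 ASC libraries. This gave a log2 fold change of 0.72 (-0.41 to 1.85, adjusted p = 0.540). The most abundant member, Gstm1, was also the steadiest of the 38 tested between libraries. It averaged 751 ± 36.9 CPM in ASC and 747 ± 46.9 CPM in sham, and its highest library was 1.16 times its lowest. Gstp1, which has a near-identical copy in Gstp2, averaged 81.2 ± 17.2 CPM in ASC and 68.1 ± 11.8 CPM in sham. Gsta4, which acts on the lipid peroxidation product 4-hydroxynonenal, had 35.8 to 40.3 CPM in ASC and 27.7 to 38.6 CPM in sham, with a log2 fold change of 0.19 (-0.04 to 0.43). For Gstp1 too the interval included 0, at -0.11 to 0.62. Gstt1 averaged 19.7 ± 5.16 CPM in ASC and 16.2 ± 4.27 CPM in sham. Gstm5 was level, at 68.4 ± 9.86 CPM in ASC and 67.9 ± 10.7 CPM in sham, and the antisense gene 4933431E20Rik shares 13.9% of its exon bases. Of the microsomal forms, Mgst1 averaged 68.6 ± 12.6 CPM in ASC and 61.3 ± 4.30 CPM in sham, and Mgst3 averaged 4.60 ± 1.31 CPM in ASC and 4.35 ± 0.559 CPM in sham.

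The thioredoxin system passes electrons from NADPH through Txnrd1 to thioredoxin, Txn1. Txn1 had 66.4, 67.0, 62.0 and 56.9 CPM in ASC libraries and 67.3, 69.6, 51.7 and 73.1 CPM in sham libraries. Txnrd1 had 52.5, 59.5, 57.5 and 62.0 CPM in ASC libraries and 57.3, 62.3, 56.1 and 45.7 CPM in sham libraries. Both genes overlapped between groups, with log2 fold changes of -0.05 (-0.30 to 0.19) for Txn1 and 0.06 (-0.17 to 0.29) for Txnrd1. Txnip, an inhibitor of thioredoxin, had 6.50, 18.0, 12.5 and 10.5 CPM in ASC libraries and 7.16, 9.34, 10.3 and 11.2 CPM in sham libraries. ASC 1 was the lowest and ASC 2 the highest of the 8 libraries, and the log2 fold change was 0.33 (-0.27 to 0.94), or 0.06 without ASC 2. The antisense gene Gm15441 shares 19.4% of Txnip's exon bases. Srxn1, sulfiredoxin, which repairs over-oxidised peroxiredoxins, had 15.8, 22.1, 19.9 and 19.0 CPM in ASC libraries and 16.7, 19.5, 16.6 and 18.3 CPM in sham libraries. Its lowest value was also in an ASC library, and the log2 fold change was 0.11 (-0.15 to 0.37). Glutaredoxin, Glrx, which removes glutathione from proteins, was scarce, with 1.79, 4.45, 3.70 and 1.96 CPM in ASC libraries and 0.843, 2.85, 2.52 and 2.23 CPM in sham libraries. Its groups overlapped, with a log2 fold change of 0.50 (-0.38 to 1.39).

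The 6 peroxiredoxins, which reduce peroxides through thioredoxin or, for Prdx6, glutathione, had log2 fold changes of 0.05 to 0.24. None passed the test or had an unadjusted p under 0.05, and with library totals only Prdx2, Prdx3, Prdx4 and Prdx5 were below 0, at -0.06, -0.04, -0.04 and -0.03. Prdx6 had 194, 229, 247 and 256 CPM in ASC libraries, against 161, 235, 206 and 184 CPM in sham libraries. Both ASC 3 and ASC 4 were above every sham library, and the log2 fold change was 0.24 (-0.05 to 0.52). Prdx1, the main cytosolic form, averaged 243 ± 24.8 CPM in ASC and 206 ± 27.7 CPM in sham, with a log2 fold change of 0.24 (-0.02 to 0.50). Prdx2, abundant in red cells as well as elsewhere, averaged 187 ± 6.30 CPM in ASC and 180 ± 22.6 CPM in sham. The mitochondrial Prdx3 averaged 38.8 ± 2.42 CPM in ASC and 36.7 ± 4.98 CPM in sham. For Prdx4, of the endoplasmic reticulum, the means were 30.0 ± 6.54 CPM in ASC and 28.2 ± 2.59 CPM in sham. For these 3 genes the means differed by less than the larger SD. Prdx5 averaged 267 ± 9.88 CPM in ASC and 254 ± 47.3 CPM in sham. Prdx5 shares 19.1% of its exon bases with Trmt112, and Prdx2 shares 5.67% with Junb.

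All 3 superoxide dismutases and catalase had positive log2 fold changes, against 51.4% of all genes. With library totals only they stayed positive, against 32.2% of all genes. None passed the adjusted test, and the intervals of Sod2 (-0.05 to 0.33) and Sod3 (-0.81 to 1.83) included 0. Sod1, the cytosolic copper and zinc enzyme, had 140, 127, 136 and 127 CPM in ASC libraries, against 103, 99.8, 85.7 and 113 CPM in sham libraries. Every ASC library was above every sham library, and they stayed apart with library totals only, at 121 to 134 CPM in ASC and 98.9 to 108 CPM in sham. The log2 fold change of Sod1 was 0.40 ± 0.10 (SE; 0.19 to 0.62), with an unadjusted p of 0.00149 and an adjusted p of 0.0756 in edgeR and 0.00946 in DESeq2. Cat, catalase, had 54.6, 38.2, 49.2 and 51.0 CPM in ASC libraries, against 37.1, 39.5, 36.5 and 32.8 CPM in sham libraries. In 3 of 4 ASC libraries it was above every sham library, and ASC 2 lay below sham 2. Cat thus had a log2 fold change of 0.40 (0.15 to 0.65, unadjusted p = 0.00439, adjusted p = 0.127). Without ASC 2, Cat passed the test, with a log2 fold change of 0.50 and an adjusted p of 0.0319 (1.41% of all genes passed in that fit). With any other library left out, Cat had an adjusted p of 0.180 to 0.261 in edgeR.

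Sod3, the extracellular superoxide dismutase, had 15.5, 65.7, 45.7 and 50.3 CPM in ASC libraries and 10.9, 37.9, 42.3 and 33.3 CPM in sham libraries. As with Gpx3, replicate 1 was the lowest library in each group, and the groups overlapped, with a log2 fold change of 0.51 (-0.81 to 1.83). The same libraries had the lowest sums of the 11 macrophage and leukocyte markers, which ranged from 19.7 CPM in ASC 1 to 70.9 CPM in ASC and from 10.9 CPM in sham 1 to 44.4 CPM in sham. Photoreceptor markers were also lowest in sum in these libraries, with 1949 CPM in ASC 1 and 988 CPM in sham 1. The part of either marker list in the values of Gpx3 and Sod3 was not tested. The mitochondrial Sod2 averaged 77.0 ± 5.47 CPM in ASC and 69.9 ± 4.65 CPM in sham. Summed, the 3 dismutases and catalase reached 295 to 308 CPM in ASC and 218 to 256 CPM in sham. With library totals only, those sums overlapped, at 255 to 327 CPM in ASC and 221 to 269 CPM in sham. Red cells are rich in catalase and Sod1, and the red cell markers were apart between groups in the same direction. Among ASC libraries those markers summed to 308, 121, 73.9 and 370 CPM. Cat was highest in the same ASC libraries as these markers, ASC 1 and ASC 4, and Sod1 was highest in ASC 1 and ASC 3. At the low end the order differed, with Cat lowest in ASC 2 and these markers lowest in ASC 3. The part of the red cell markers in the values of Sod1 and Cat was not tested.

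The Sod1 window is shown because Sod1 was the member with the smallest unadjusted p and its window is among the 9 with ARE letters. Capitals mark the match, on the reverse strand.
Sod1, chr16:90220512-90220811, + strand: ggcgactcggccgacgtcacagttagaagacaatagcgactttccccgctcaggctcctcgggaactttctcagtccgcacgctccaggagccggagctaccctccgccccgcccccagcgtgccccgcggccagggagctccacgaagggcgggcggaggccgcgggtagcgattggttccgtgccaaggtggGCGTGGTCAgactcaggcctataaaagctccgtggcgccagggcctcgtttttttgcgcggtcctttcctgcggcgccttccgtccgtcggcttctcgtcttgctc

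Hmox1, heme oxygenase 1, which breaks haem down to biliverdin, iron and carbon monoxide, had the largest fold change of the 38 tested members. It had 306, 28.6, 161 and 134 CPM in ASC libraries, against 12.6, 10.5, 26.4 and 42.1 CPM in sham libraries. In 3 of 4 ASC libraries it was above every sham library, and ASC 2 lay below sham 4. The means were 158 ± 114 CPM in ASC and 22.9 ± 14.6 CPM in sham (SD, n = 4 each). The log2 fold change was 2.79 ± 0.81 (SE; 0.83 to 4.75), a fold of 6.94, with an unadjusted p of 0.0125 and an adjusted p of 0.203 in edgeR, 0.0104 in DESeq2 and 0.111 in limma-voom. Over all alternative settings the log2 fold change lay between 2.25 and 3.25. Nqo1, a quinone reductase and a common readout of NRF2, had 12.8, 13.4, 12.4 and 18.9 CPM in ASC libraries and 13.4, 13.2, 12.4 and 13.2 CPM in sham libraries. Apart from ASC 4 its 7 other libraries lay between 12.4 and 13.4 CPM, and its log2 fold change was 0.14 (-0.17 to 0.45).

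Mt1, metallothionein 1, a small cysteine-rich protein that binds zinc and copper, had 16.7, 40.5, 65.1 and 60.9 CPM in ASC libraries, against 13.5, 14.7, 16.6 and 7.22 CPM in sham libraries. Every ASC library was above every sham library, but ASC 1 and sham 3 were almost equal, and with library totals only the groups overlapped. The means were 45.8 ± 22.2 CPM in ASC and 13.0 ± 4.05 CPM in sham (SD, n = 4 each). The log2 fold change was 1.81 ± 0.47 (SE; 0.70 to 2.92), a fold of 3.50, with an unadjusted p of 0.00652 and an adjusted p of 0.151 in edgeR, 0.00660 in DESeq2 and 0.120 in limma-voom. Without ASC 1, Mt1 passed edgeR's test, with a log2 fold change of 2.08 and an adjusted p of 0.0288 (0.622% of all genes passed in that fit). With any other library left out, Mt1 had an adjusted p of 0.217 to 0.286 in edgeR. Mt2, its neighbour in the genome, was close to absent from the table, with 26 counts over the 8 libraries. It had 0.191, 0.109, 0.289 and 0.202 CPM in ASC libraries and 0, 0.514, 0.0969 and 0 CPM in sham libraries. The antisense gene Gm45774 shares 73.5% of Mt2's exon bases and held 27 counts, and whether the overlap removed reads from Mt2 was not tested.

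**Figure D3:**
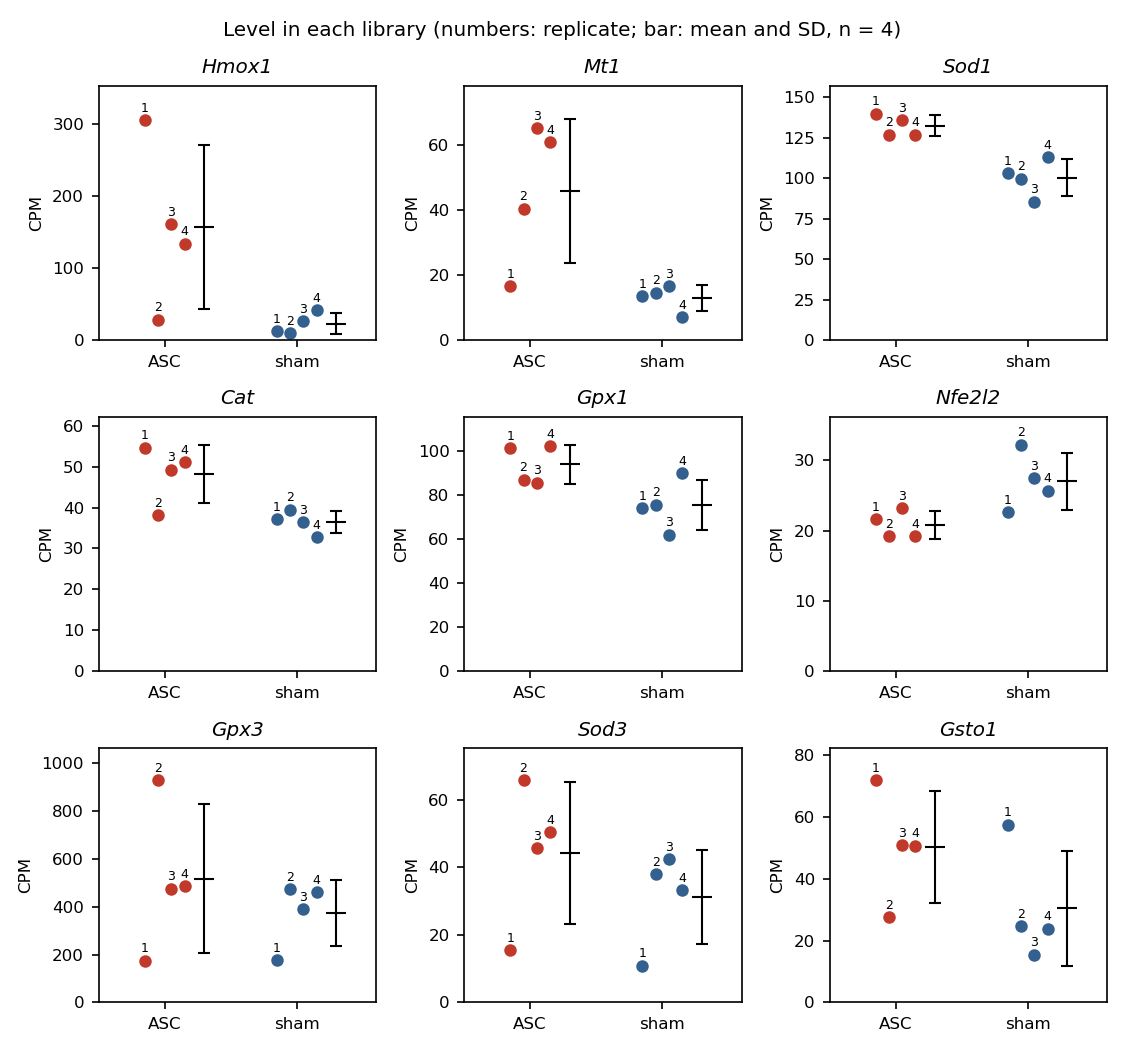
CPM of 9 members in each library, ASC left and sham right, with replicate numbers, and the mean and SD of 4 libraries (bars). Sod1 and Mt1 do not overlap between groups, Hmox1 overlaps through ASC 2, and Gpx3 and Sod3 are lowest in replicate 1 of each group.

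The promoters of the Mt1 and Mt2 pair are shown because both hold several MRE cores while their counts differed so widely. The letters TGCACNC or TGCGCNC, searched on both strands, occurred at least once in 25.7% of the 32851 windows and in 13 of the 41 windows of members, and 3 or more times in 1.97% of all windows. Besides this pair, the Gclm window printed above held several, starting at bases -138, -72 and 28. Capitals in that window mark the ARE only. Within their windows Mt1 held 3 matches and Mt2 held 4, and sequence outside the windows was not searched. Between the 2 windows lie 6171 bases. Capitals mark the matches, and the Mt2 window also holds ARE letters outside the capitals.
Mt1, chr8:94178839-94179138, + strand: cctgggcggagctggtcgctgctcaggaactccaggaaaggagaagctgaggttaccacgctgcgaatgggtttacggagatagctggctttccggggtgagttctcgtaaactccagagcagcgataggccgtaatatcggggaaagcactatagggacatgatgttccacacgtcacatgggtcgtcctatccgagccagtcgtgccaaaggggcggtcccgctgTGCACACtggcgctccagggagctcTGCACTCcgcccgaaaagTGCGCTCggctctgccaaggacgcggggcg
Mt2, chr8:94172368-94172667, + strand: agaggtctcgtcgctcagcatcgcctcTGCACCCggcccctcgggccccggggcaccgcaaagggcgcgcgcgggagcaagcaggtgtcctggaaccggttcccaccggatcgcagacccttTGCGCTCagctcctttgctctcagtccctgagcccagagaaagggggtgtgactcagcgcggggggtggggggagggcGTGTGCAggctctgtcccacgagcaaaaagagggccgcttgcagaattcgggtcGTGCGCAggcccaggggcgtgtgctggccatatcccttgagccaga

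For the members with the widest spread between libraries, genes with a similar pattern were sought among 11973 genes, by the SD over 8 libraries of the log2 ratio of the CPM values. This search was added after the values were seen, and it describes likeness only. The nearest gene to Hmox1 was Dnase2b, a nuclease that degrades nuclear DNA in lens fibre cells, with an SD of 0.21. Dnase2b had 108, 8.25, 62.9 and 53.6 CPM in ASC libraries, against 3.42, 2.99, 8.14 and 15.6 CPM in sham libraries. The order of the libraries was that of Hmox1 within both groups, and the ratio of Hmox1 to Dnase2b CPM was 2.50 to 3.47 in ASC and 2.71 to 3.68 in sham. Next came Lgsn, the lens protein lengsin, with an SD of 0.23, then Clic5, Crygb and Ccdc180. None of these 5 genes passed the test. Lens fibre markers as a whole, 8 genes with Dnase2b among them, summed to 8451 to 17643 CPM in ASC and 8060 to 11130 CPM in sham. Of the 8, 7 were positive, against 51.4% of all genes, and 0 were called by edgeR, against 1.02%. The 3 with unadjusted p-values under 0.05, against 14.7% of all genes, included Dnase2b. The part of these markers in the difference of Hmox1 was not tested.

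The nearest genes to Mt1 were Rasgrp3, with an SD of 0.24, and Mlana, Slc24a5, Tyrp1 and Tspan10, with SDs of 0.33 to 0.41. Mlana, Slc24a5 and Tyrp1 are genes of melanosomes, the pigment granules. Rasgrp3, a guanine nucleotide exchange factor, had 1.21, 2.50, 3.64 and 5.53 CPM in ASC libraries, against 0.983, 0.841, 0.969 and 0.521 CPM in sham libraries. As with Mt1, ASC 1 was the lowest ASC library and sham 4 the lowest of all. The 6 pigment cell markers had 115, 296, 444 and 578 CPM in sum in ASC libraries and 88.3, 77.4, 196 and 25.6 CPM in sham libraries. All 6 were positive, against 51.4% of all genes, and edgeR called 0, against 1.02%. The 5 with unadjusted p-values under 0.05, against 14.7% of all genes, included Mlana and Tyrp1, named above for their likeness to Mt1. The part of these markers in the difference of Mt1 was not tested. For Sod3 the nearest genes were Zic1, a transcription factor, with an SD of 0.15, then Tmem132c, Otx1, Reln and Boc. Zic1 had 9.44, 42.1, 26.3 and 27.1 CPM in ASC libraries and 5.48, 26.5, 25.0 and 17.6 CPM in sham libraries, again lowest in replicate 1 of each group.

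**Figure D4:**
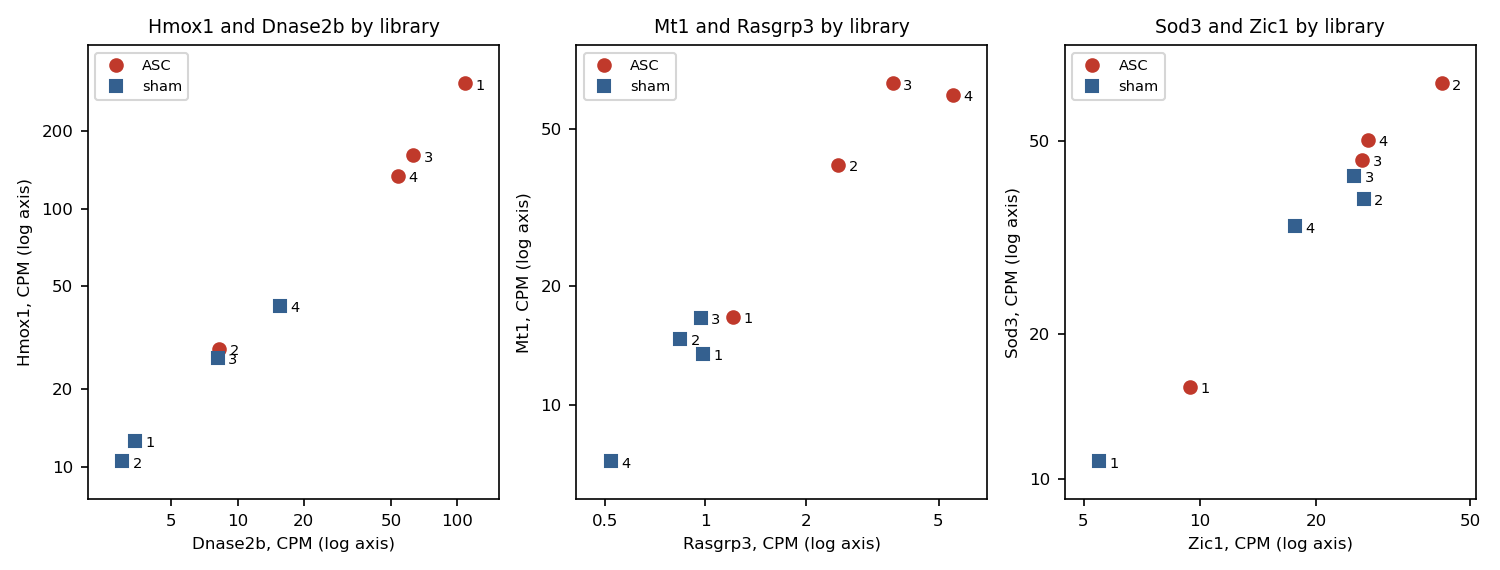
CPM of Hmox1, Mt1 and Sod3 in each library against that of the gene with the most similar pattern (log axes), for ASC (circles) and sham (squares), with replicate numbers. Hmox1 and Dnase2b keep a ratio between 2.50 and 3.68 over the 8 libraries, Mt1 and Rasgrp3 are both lowest in sham 4, and Sod3 and Zic1 are both lowest in replicate 1 of each group.

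The other genes of these pathways were followed in 8 lists, 103 genes of which 95 were tested. Of these, 2 rose and 0 fell, where 1.02% of all genes tested passed the same threshold. The log2 fold change was above 0 for 62 of the 95, against 51.4% of all genes. With library totals only, 32.2% of all genes were above 0, and the number in these lists was not counted. Among 9 partners and repressors of NRF2, 1 rose, Maff, a small MAF protein that binds DNA in dimers with NRF2 or with repressors. Maff had 34.9, 27.5, 31.5 and 29.2 CPM in ASC libraries, against 10.1, 12.4, 11.0 and 12.1 CPM in sham libraries. The lowest ASC library was far above the highest sham library, and the log2 fold change was 1.44 ± 0.11 (SE, adjusted p = 6.58e-05). Among 18 other thioredoxin, glutaredoxin, sestrin and methionine sulphoxide reductase genes, 1 rose, Arrdc4, an arrestin-domain protein related to Txnip. Arrdc4 had 15.9, 5.38, 11.0 and 12.1 CPM in ASC libraries, against 3.93, 3.41, 3.68 and 4.47 CPM in sham libraries. The groups did not overlap, and the log2 fold change was 1.52 ± 0.28 (SE, adjusted p = 0.0318). This call was lost in limma-voom (adjusted p = 0.106) and without any 1 of the libraries other than ASC 2, with adjusted p-values of 0.0548 to 0.113.

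In the other 6 lists edgeR called 0 genes, with 8 higher and 2 lower at an unadjusted p under 0.05, against 14.7% of all genes. Over all 8 lists DESeq2 called 8 of the 95, against 3.74% of all genes. For each of these 6 lists the member with the highest level per kilobase is given. Slc3a2, the partner chain of the Slc7a11 transporter, led the 15 genes of glutathione turnover and precursor transport, with 391 ± 25.9 CPM in ASC and 348 ± 28.0 CPM in sham. Gstm2 led the 12 tested of 19 other glutathione peroxidases and transferases, with 96.2 ± 11.7 CPM in ASC and 105 ± 11.1 CPM in sham. Tkt, transketolase, led the 9 genes of NADPH supply, with 1590 ± 239 CPM in ASC and 1470 ± 159 CPM in sham. The interval of the log2 fold change included 0 for each of these 3 genes. Fth1, the ferritin heavy chain that stores iron, led the 8 genes of haem, iron and bilirubin metabolism, with 799 ± 60.2 CPM in ASC and 681 ± 77.7 CPM in sham. Aldh1a1, an aldehyde dehydrogenase, led the 15 genes of aldehyde and quinone detoxification, with 1439 ± 136 CPM in ASC and 1370 ± 253 CPM in sham. Slc39a1, a zinc importer, led the 9 tested of 10 zinc and metallothionein genes, with 82.9 ± 4.92 CPM in ASC and 79.5 ± 10.9 CPM in sham. The adjusted p-values of these 6 genes ranged from 0.402 to 0.869.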

How the data were processed

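RNA of 8 lens capsule libraries (4 ASC, 4 sham) was poly-A selected and sequenced, per the labels' protocols. The authors deposited read counts per gene, whole numbers with no normalization. The tools were CASAVA, fastp, HISAT2 2.0.5 and featureCounts 1.5.0-p3, per the submitters' processing notes. The genome build, annotation, strand setting and handling of multi-mapping reads were not given in the sources used here. Symbols were matched for 54409 of 54532 identifiers, and transcript lengths and exon overlaps came from GENCODE mouse annotation.

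In edgeR 4.0.16 (R 4.3.3), genes were filtered with filterByExpr and scaled by TMM, and ASC was compared with sham by the quasi-likelihood F test (robust, without covariates). The Benjamini-Hochberg adjustment covered all 15857 genes tested, and genes under 0.05 were called. Fold changes are ASC over sham. CPM values use TMM-scaled library sizes, and log2 CPM a prior count of 2. Reads carried no molecular identifiers, so precision refers to reads. The procedure was tested on simulated counts. Alternatives were DESeq2 1.42.0, limma-voom (limma 3.58.1), other scalings and filters, crystallins left out, the replicate block and each library left out. No 2 libraries of a group agreed within sampling noise.

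The members and all gene lists were chosen with earlier results of these data known. Values in every library are given for members with an unadjusted p under 0.05 or an absolute log2 fold change of at least 0.5, and for 17 members named for their role. For pathway lists, genes past the threshold are named, otherwise the one with the highest level. Likeness was computed for members whose log2 CPM had an SD of at least 0.75, over genes averaging at least 1 in log2 CPM.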

Additional observations from a re-analysis of the deposited data

Results flagged for a closer look

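Gclc stood apart in 1 library. It had 120 CPM in ASC 4, against 195 to 198 CPM in the other 3 ASC libraries, so that the gap to the nearest library was 0.957 of the range within ASC on the CPM scale. Nqo1 also stood apart in ASC 4, with 18.9 CPM against 12.4 to 13.4 CPM in the other 3 ASC libraries, a gap of 0.849 of the range. On log2 CPM the gap was 0.966 of the range for Gclc and 0.820 for Nqo1, which was then no longer past Dixon's 95% critical value. Over 76 sets of 4 libraries (38 members in 2 groups), 2 were past that value on CPM and 1 on log2 CPM, where chance alone passes it in about 5% of sets.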

How the results depend on the processing

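The count of genes past the threshold was 162 in edgeR, 593 in DESeq2, 107 in limma-voom, 712 with no low-count filter, and 56 to 228 with each library left out. For the members it was 0 in edgeR, 3 in DESeq2, 2 with no low-count filter (Sod1, adjusted p = 0.0316, and Cat, adjusted p = 0.0398) and 0 to 1 with each library left out (Mt1 without ASC 1, Cat without ASC 2). For the other pathway genes it was 2 in edgeR, 8 in DESeq2, 1 in limma-voom, 9 with no low-count filter and 1 to 3 with each library left out. The cause was not tested. Same-numbered libraries deviated together (correlation over 0.1) in only 2 of 4 pairs, so the numbers were not taken as a pairing; with the replicate number as a block, 169 genes, 0 members and 2 pathway genes passed. With library totals only, log2 fold changes turned to -0.09 for Gsr and Slc7a11, -0.03 for Gpx8 and Prdx5, -0.12 for Gstm1, -0.11 for Gstm5, -0.01 for Mgst3, -0.06 for Txnrd1 and Prdx2, and -0.04 for Prdx3 and Prdx4. With upper-quartile scaling Gstm1 and Gstm5 turned to -0.01, and with no low-count filter Gstm1 turned to -0.00. With each library left out, the log2 fold changes that turned direction ranged from -0.10 to 0.10 for Gclc, -0.18 to 0.00 for Gclm, -0.01 to 0.09 for Gsr, -0.17 to 0.21 for Slc7a11, -0.30 to 0.13 for Gpx7, -0.03 to 0.24 for Gpx8, -0.02 to 0.05 for Gstm1, -0.07 to 0.11 for Gstm5, -0.09 to 0.24 for Mgst3, -0.15 to 0.00 for Txn1, -0.02 to 0.12 for Txnrd1, -0.02 to 0.13 for Prdx2, -0.00 to 0.14 for Prdx3, -0.02 to 0.22 for Prdx4, -0.04 to 0.18 for Prdx5 and -0.02 to 0.20 for Nqo1. None of these genes had passed the test. Mt2 had 0 to 11 counts per library, too few to test.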

Other observations

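Among genes outside the members, those nearest to Gpx3 in pattern over the 8 libraries were Bcam, with an SD of the log2 ratio of 0.20, Best2, a bestrophin anion channel, with 0.22, and then Adamtsl1, Tmtc1 and Stard8. Bcam, a laminin-binding cell surface protein, had 10.9, 40.9, 28.3 and 27.7 CPM in ASC libraries and 8.99, 24.1, 24.9 and 21.4 CPM in sham libraries, and was lowest in replicate 1 of each group, as Gpx3 and Sod3 were. Gsto1 had no gene as close: the nearest, Pbx4, a homeobox transcription factor, had an SD of 0.37.

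In the pathway lists, the ferritin light chain Ftl1 had 492, 229, 404 and 409 CPM in ASC libraries, against 201, 199, 211 and 281 CPM in sham libraries, with a log2 fold change of 0.78 and an adjusted p of 0.131 in edgeR and 0.00648 in DESeq2. In both groups Ftl1 was lowest in the library where Hmox1 was lowest and highest where Hmox1 was highest. Mt3, another metallothionein, had 1.47, 6.95, 2.83 and 5.26 CPM in ASC libraries, against 1.12, 2.05, 1.16 and 1.19 CPM in sham libraries, with a log2 fold change of 1.57 and an adjusted p of 0.127 in edgeR and 0.0210 in DESeq2. Without ASC 2 the log2 fold change of Mt3 was 1.19, and without ASC 1 it was 1.85, with an adjusted p of 0.0437 in edgeR. Both genes were chosen after their values were seen.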
